A study of Homo sapiens with 9 samples.

Results

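SOX4 was read from 1 row, transcript NM_003107.3, of the 159067 RefSeq transcript rows in the table of counts, and it is described here in all 9 libraries. It was chosen by its counts in these same libraries, which were lower in every treated library and graded across them, so its levels and fold changes are given as a description, without a test. RNA came from U-87, an established human glioblastoma cell line that tolerates high concentrations of temozolomide (TMZ), an alkylating drug used against glioblastoma. The cells were grown in 6-well plates, and libraries were made from the 3′ ends of the messenger RNA after 24 h. The 3 control libraries were untreated. Evernic acid (EA), a metabolite of lichens, was given alone at 30 µM (EA30) or 45 µM (EA45), and TMZ was given alone at 600 µM (TMZ600). The combinations were 35 µM EA with 320 µM TMZ (EA35TMZ320), 20 µM EA with 380 µM TMZ (EA20TMZ380) and 20 µM EA with 580 µM TMZ (EA20TMZ580). Each treatment had 1 library and therefore no replicate. The labels do not say whether the controls were separate cultures, so the spread between them may be technical.

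SOX4 is a transcription factor of the SoxC group, whose members bind DNA through a high-mobility-group (HMG) box. In glioma-initiating cells, TGF-beta acts through SMAD proteins to raise SOX4, and SOX4 in turn raises SOX2, an axis known for keeping these cells stem-like. SOX4 protein can also act with TCF and beta-catenin in the Wnt pathway.

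The SOX4 gene lies on chromosome 6 at 21593751 to 21598619 in RefSeq's GRCh38.p14 annotation, has a single exon and spans 4869 bases. In GENCODE's annotation of GRCh38 the exon runs from 21592768 to 21598619, the coding sequence from 21594535 to 21595956, and 2663 bases follow it. The antisense gene AL512380.2 (21528739 to 21595593, minus strand) overlaps the 5′ part of SOX4: it starts within the SOX4 coding sequence and runs away from the 3′ end of SOX4. Whether counting used the strand is not given in the sources used here, so reads of SOX4 and of this partner cannot be told apart where they overlap.

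The HMG box is the part of SOX4 that binds DNA, and most of its coding sequence is shown to place the gene. The line holds codons 58 to 126 of SOX4 in GRCh38 (chr6:21594706-21594912, plus strand), 207 bases in all. Capitals mark the codons of the motif that SOX proteins share, by which the stretch was found.
SOX4: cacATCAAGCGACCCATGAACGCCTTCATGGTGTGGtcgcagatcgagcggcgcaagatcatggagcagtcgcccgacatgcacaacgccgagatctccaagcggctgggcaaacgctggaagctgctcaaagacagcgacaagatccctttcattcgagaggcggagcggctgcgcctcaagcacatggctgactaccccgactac

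Reads from the 3′ ends of transcripts fall mainly outside the stretch shown. The other SoxC members, SOX11 and SOX12, were listed at 0 in all 9 libraries.

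The RefSeq promoter window of SOX4, 250 bases before to 50 bases after its start, was searched on both strands for 5 short motifs. GENCODE starts the exon further upstream, so the sites shown lie inside its SOX4 exon. The CCAAT box, a common promoter element, occurred 4 times, and 0.991% of 35116 promoters of the same length held it that often, while 34.6% held it at least once. The 30 bases around each occurrence are shown, with the letters found in capitals (ATTGG is CCAAT on the other strand) and with their places in GRCh38.
chr6:21593558-21593587: tttgctctgtaaATTGGaatgaggtcagat
chr6:21593625-21593654: tcgggttccaagCCAATgggaagcccgggg
chr6:21593682-21593711: ttacagcagctgATTGGctgcagccaagac
chr6:21593729-21593758: gcgcgaggcggaATTGGggtctgctctaag

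TATAAA, the SOX core ACAAAG, the TCF/LEF site CTTTGAT and the SMAD palindrome GTCTAGAC were not in this window. Of all promoters, 11.5% held TATAAA, 16.1% ACAAAG, 2.62% CTTTGAT and 0.202% GTCTAGAC. Binding was not measured in this series.

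Totals per library were 259753 to 285248 counts in the controls and 213566 to 490235 in the treated libraries, and 96265 to 205133 of them lay on nuclear transcripts. Mitochondrial transcripts took 48.4 to 49.1% of the counts in the controls and 51.7 to 58.7% in the treated libraries. At least 1 count was recorded for 5850 transcripts, and the 618 whose mean over the libraries reached 10 counts were tested. The table was sparse in genes that every glioma cell uses. Of 10 astroglial and glioma markers 7 were at 0 in all libraries, GFAP and VIM among them, as were all 4 neuronal, 4 oligodendroglial, 4 epithelial and 4 fibroblast markers. The defining astroglial markers could therefore not be used to check the label, and a 0 was not read as absence of a transcript. Of 3 immune markers only CD3E was counted, with 2 counts.

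SOX4 was among the transcripts with the most counts in the control libraries. The controls held 1148, 1234 and 1270 SOX4 counts, which put it at places 18, 16 and 17 among the nuclear transcripts when ranked by count. Counts of 3′ end libraries are not divided by transcript length. Many genes, VIM among them, had no counts, so places by count hold only among the transcripts counted here. They are not ranks among all transcripts of the cells. TMZ600 held 535 counts and EA30 held 507. EA20TMZ380 held 234 counts, EA20TMZ580 held 159 and EA45 held 142. The fewest, 46 counts, were in EA35TMZ320, where SOX4 had moved to place 251. Every treated library lay below every control, and the groups did not overlap. In 11.0% of the 618 tested transcripts all 6 treated libraries lay below all controls.

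For comparison between libraries, counts were scaled to equal library size and given as CPM after TMM, a normalisation that corrects for composition. In the controls SOX4 had 3983, 4478 and 4146 CPM, with a mean of 4202 ± 252 CPM (SD, n = 3). TMZ600 had 1577 CPM (95% counting interval, exact Poisson, 1446 to 1716), which was 37.5% of the control mean. EA30 had 1159 CPM (1061 to 1265), or 27.6% of the control mean. Both lay below the lowest control, which stood 2.53-fold above the highest treated library.

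EA20TMZ380 had 722 CPM (633 to 821), 17.2% of the control mean. EA20TMZ580 had 513 CPM (436 to 599), or 12.2%. EA45 had 480 CPM (404 to 565), or 11.4%. EA35TMZ320 had the lowest level, 227 CPM (166 to 302), which was 5.39% of the control mean. These intervals cover counting error only, and for a treated library no error between cultures could be estimated. In bulk RNA, fewer cells that make SOX4 and less SOX4 RNA per cell cannot be told apart.

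**Figure D1:**
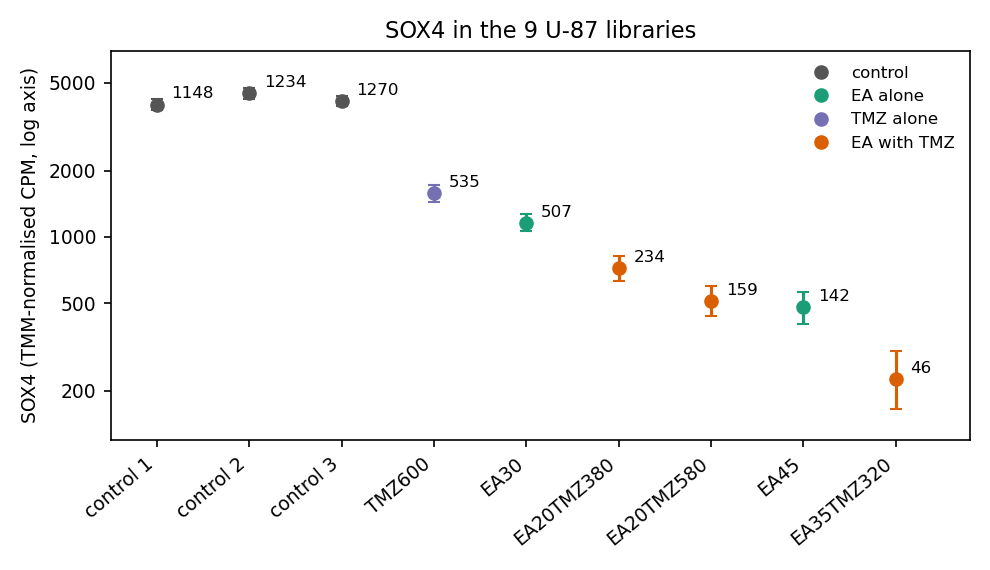
SOX4 level in TMM-normalised CPM (log axis) in the 3 control and 6 treated libraries, with bars for the 95% counting interval and the raw count printed beside each point. The controls lie between 3983 and 4478 CPM, and the treated libraries run from 1577 CPM in TMZ600 down to 227 CPM in EA35TMZ320.

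The order of the treatments, from the highest to the lowest SOX4 level, was TMZ600, EA30, EA20TMZ380, EA20TMZ580, EA45 and EA35TMZ320. The controls spanned 0.17 on the log2 scale. Gaps between neighbours in the order were 0.44 from TMZ600 to EA30, 0.68 from EA30 to EA20TMZ380 and 0.49 from EA20TMZ380 to EA20TMZ580, each wider than that span. EA20TMZ580 and EA45 differed by 0.098, less than the controls differed among themselves, and their counting intervals overlapped. EA35TMZ320 lay 1.08 below EA45. The order was the same in the 7 alternatives of scaling, filter and fit. All of them reuse the same counts of single libraries, so they do not test the order against variation between cultures. Leaving out a control could hardly change the order. It was also the same per 10000 nuclear counts, which leaves out the mitochondrial share that was higher in the treated libraries. On that scale SOX4 took 83.1 to 92.1 in the controls, 36.4 in TMZ600, 24.7 in EA30, 14.9 in EA20TMZ380, 11.6 in EA20TMZ580, 9.64 in EA45 and 4.78 in EA35TMZ320.

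The single agents gave the smaller differences at the concentrations tested, apart from EA45. Log2 fold changes against the controls came from 1 edgeR fit over the 9 libraries, in which the spread rested on the controls. For TMZ600 the SOX4 log2 fold change was -1.41 (standard error 0.17), or 2.66-fold lower. For EA30 it was -1.86 (standard error 0.18), or 3.62-fold lower, and for EA45 it was -3.13 (standard error 0.20), or 8.76-fold lower. From EA30 to EA45 the level of SOX4 thus differed by a further -1.27 (standard error 0.22) on the log2 scale. TMZ alone was tested at 1 concentration, so no grading by TMZ alone could be described.

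Among the combinations, SOX4 was lower with more TMZ at the same EA concentration and lowest with the most EA. The log2 fold change was -2.54 (standard error 0.19) in EA20TMZ380, or 5.82-fold lower. It was -3.03 (standard error 0.20) in EA20TMZ580, or 8.18-fold lower, which differed from EA20TMZ380 by -0.49 (standard error 0.23) at the same EA concentration. In EA35TMZ320, which had the most EA and the least TMZ of the combinations, it was -4.21 (standard error 0.24), or 18.5-fold lower. Compared with the nearest single agents, EA35TMZ320 lay -2.35 (standard error 0.26) from EA30 and -1.08 (standard error 0.28) from EA45, although it held less EA than EA45. EA20TMZ580 lay -1.62 (standard error 0.22) from TMZ600.

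Over the 9 libraries, a log-linear fit gave SOX4 a slope of -0.75 (standard error 0.063) log2 units per 10 µM EA. The slope for TMZ was -0.29 (standard error 0.040) log2 units per 100 µM. Counted from the most negative, these slopes stood at place 4 of 618 for EA and place 10 for TMZ, where the median slopes of all tested transcripts were -0.0070 and 0.0017. With the 6 treated libraries taken as 1 group, the SOX4 log2 fold change was -2.42 (standard error 0.42), at place 4. In the single treatments SOX4 stood at places 10 to 25. SOX4 was chosen for its graded fall in these same libraries, so low places follow from that choice.

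**Figure D2:**
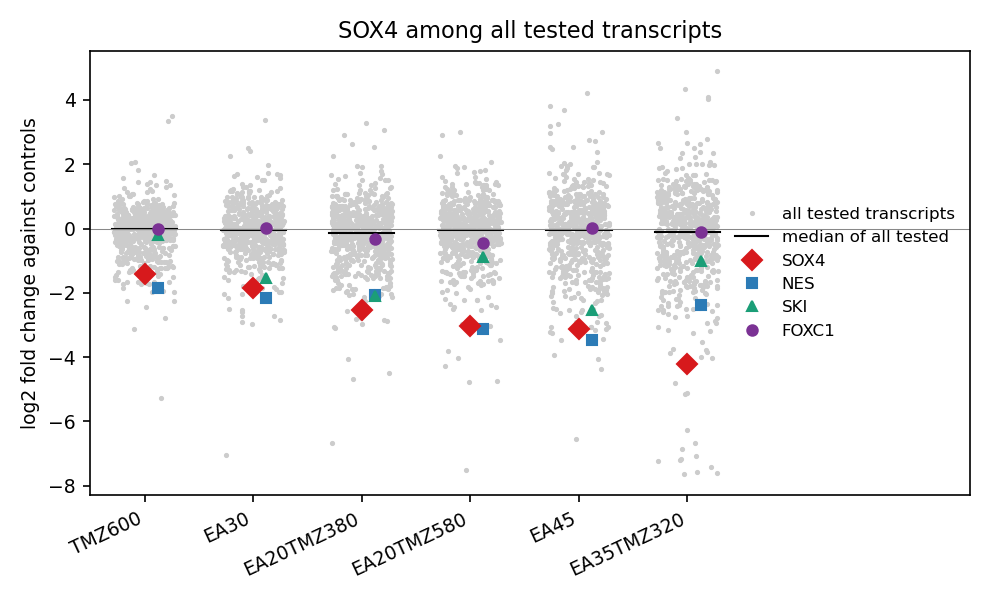
Log2 fold change against the controls in each treatment for the 618 tested transcripts (grey), with their median (line), SOX4 (red diamonds), NES, SKI and FOXC1. SOX4 runs from -1.41 in TMZ600 to -4.21 in EA35TMZ320, while FOXC1 stays between -0.46 and 0.02.

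Additivity was described on the log2 scale, where independent agents multiply the remaining fraction. Since 20 and 35 µM EA and 320, 380 and 580 µM TMZ were not tested alone, the single-agent values were interpolated linearly between the tested concentrations. The sum of single agents was then -2.13 (standard error 0.17) for EA20TMZ380, and the measured value lay -0.41 (standard error 0.20) from it. For EA20TMZ580 the sum was -2.60 (standard error 0.22), and the departure was -0.43 (standard error 0.24). For EA35TMZ320 the sum was -3.04 (standard error 0.18), and the departure was -1.18 (standard error 0.26). All 3 combinations lay below the interpolated sum, furthest in EA35TMZ320. Each of these values rests on single libraries, and the standard errors rest on the spread of the controls, so they are no measure of the error between treated cultures. Of the tested transcripts, 13.9% lay further below their own sum than SOX4 did in EA35TMZ320, 27.2% in EA20TMZ380 and 23.3% in EA20TMZ580.

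The size of the departure depended on the interpolation. With the remaining fraction interpolated on the linear scale instead, an alternative chosen after seeing the data, the departures were -1.46 in EA35TMZ320, -0.86 in EA20TMZ380 and -0.75 in EA20TMZ580. No interpolation is needed for the sum of single agents at the next higher tested concentrations, an estimate with its own error that lies below the sum at the combined concentrations only if the response to each agent does not weaken as its concentration rises. It was -3.27 (standard error 0.26) for EA30 with TMZ600 and -4.54 (standard error 0.28) for EA45 with TMZ600. EA20TMZ380 lay 0.73 (standard error 0.27) above this sum, EA20TMZ580 lay 0.24 (standard error 0.27) above it and EA35TMZ320 lay 0.33 (standard error 0.33) above it. The measured values of the 3 combinations thus lay above these sums.

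**Figure D3:**
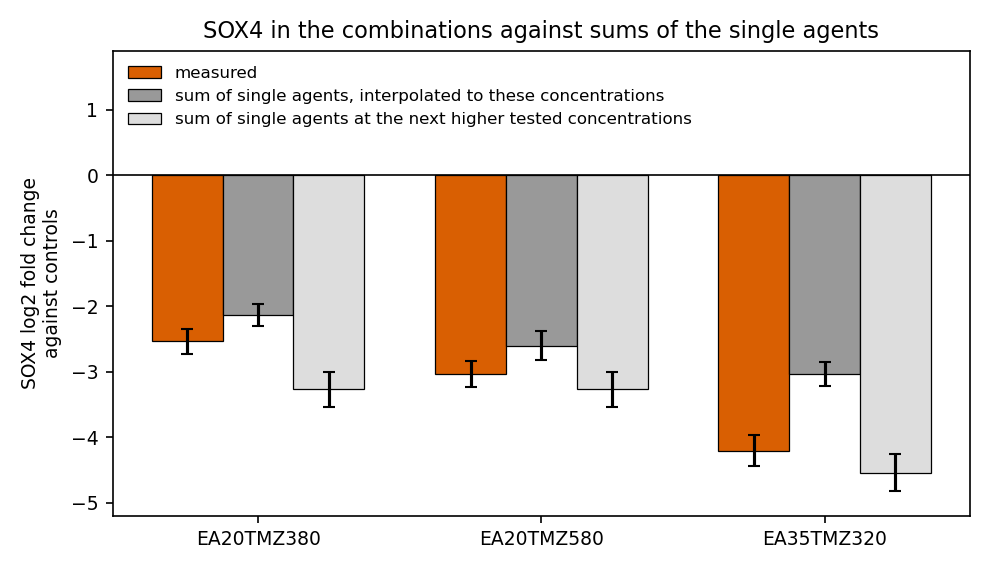
SOX4 log2 fold change against the controls in the 3 combinations (orange), beside the sum of the single agents interpolated to the same concentrations (dark grey) and at the next higher tested concentrations (light grey), with standard errors as bars. The measured value lies between both sums in each combination, furthest from the interpolated sum in EA35TMZ320 (-4.21 against -3.04).

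A model with a product of both concentrations gave the product a coefficient of -0.058 (standard error 0.027) log2 units per 10 µM EA and 100 µM TMZ, at place 61 of 618. Without TMZ600, the only library of TMZ alone, the coefficient was -0.19, and without EA35TMZ320 it was -0.031.

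Other SOX genes gave no second measurement. Of 19 genes of the SOX family, 13 were at 0 in all libraries, including SOX2, and SOX4 alone had enough counts to be tested. SOX5, SOX6, SOX10, SOX15 and SOX17 had 1 count each over the 9 libraries. Of 18 genes reported elsewhere as SOX4 targets, 16 were at 0 and none could be tested.

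Upstream of SOX4, 25 of 32 genes of TGF-beta and BMP signalling were at 0 and 1 could be tested. This was SKI, a repressor that binds SMAD proteins. SKI (XM_005244776.4) had 60, 31 and 49 counts in the controls. TMZ600 had 47 counts, EA30 24, EA20TMZ380 12, EA20TMZ580 27, EA45 8 and EA35TMZ320 16. In CPM the controls had 160 ± 47.8 (SD, n = 3), and TMZ600, with 139 CPM, lay within their range. SKI was lower in EA45 (log2 fold change -2.55, edgeR adjusted p = 0.0009) and in EA20TMZ380 (-2.10, edgeR adjusted p = 0.00528). It was also lower in EA30 (-1.54, edgeR adjusted p = 0.0352), but the adjusted p was 0.0768 without the first control and 0.174 without the filter on counts. DESeq2's Wald test ended the calls in EA30 (adjusted p = 0.378) and EA20TMZ380 (adjusted p = 0.142). In the other treatments SKI did not pass, with log2 fold changes of -1.02 in EA35TMZ320, -0.88 in EA20TMZ580 and -0.21 in TMZ600. Of all tested transcripts, 5.5% were called lower in TMZ600, 8.58% in EA30, 13.4% in EA20TMZ380, 11.8% in EA20TMZ580, 19.3% in EA45 and 23.6% in EA35TMZ320.

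Among 32 genes of glioma stem-like cells, 27 were at 0 and NES alone could be tested. NES encodes nestin, an intermediate filament protein of neural progenitors and a marker of glioma stem-like cells. NES (NM_006617.2) had 152, 169 and 174 counts in the controls. TMZ600 had 54 counts, EA30 56, EA20TMZ380 44, EA20TMZ580 20, EA45 15 and EA35TMZ320 22. As with SOX4, all treated libraries lay below all controls, which had 570 ± 43.0 CPM (SD, n = 3).

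NES was called lower in all 6 treatments, by 3.57-fold in TMZ600 (edgeR adjusted p = 2.48e-05) to 11.2-fold in EA45 (edgeR adjusted p = 6.64e-10). Each of these tests sets 1 treated library against the spread of the 3 controls, as do the other tests of single treatments here, and variation between treated cultures was not measured. The NES difference in EA35TMZ320 (log2 fold change -2.39, edgeR adjusted p = 4.55e-07, standard error 0.36) was smaller than that in EA45 (-3.48, standard error 0.39), so NES and SOX4 had their lowest level in different libraries. With 22 and 15 NES counts in these libraries, the difference between them was not tested. The NES departure from the interpolated sum in EA35TMZ320 was 1.18, of the opposite sign to that of SOX4. Among the other transcripts called lower in each of the 6 treatments, departures of both signs occurred. With the 6 treatments taken as 1 group NES was lower too (-2.39, edgeR adjusted p = 0.000986), as were 3.88% of the transcripts tested. The libraries of this group differ in agent and concentration and are not replicates of 1 condition. Transcripts called lower in each of the 6 treatments made up 2.43% of those tested, and NES was one of them. The calls for NES held in all 75 alternatives in which they were recomputed.

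In the Wnt pathway, 21 of 27 genes were at 0 and 4 could be tested. TCF7L1, a DNA-binding partner of beta-catenin, had a control level of 9967 ± 189 CPM (SD, n = 3) and was lower in EA20TMZ580 (log2 fold change -1.46, edgeR adjusted p = 5.0e-11), EA35TMZ320 (-1.11, edgeR adjusted p = 1.1e-08) and TMZ600 (-0.82, edgeR adjusted p = 1.27e-05). Its fold change in EA45 was smaller (-0.39, edgeR adjusted p = 0.0144) and was not called without the second control (adjusted p = 0.0989) or without the filter on counts (adjusted p = 0.131). The order of the treatments therefore differed from that of SOX4. FZD7, a Wnt receptor, was lower in EA35TMZ320 (-1.45, edgeR adjusted p = 0.000325), EA20TMZ380 (-1.37, edgeR adjusted p = 0.000472) and EA20TMZ580 (-0.99, edgeR adjusted p = 0.00976). With the Wald test FZD7 was not called in EA20TMZ380 (adjusted p = 0.0807) or EA20TMZ580 (adjusted p = 0.184), and in EA20TMZ580 it was not called without the second control (adjusted p = 0.0894) or without the filter on counts (adjusted p = 0.0564). WNT5A, a ligand, was called lower in EA35TMZ320 (-0.82, edgeR adjusted p = 0.00435, against 0.112 with the Wald test) and was not called in the other treatments. DKK4, a Wnt inhibitor, had 10 to 19 counts in the controls and passed in no treatment. In all, 0 of the 4 genes were called lower in EA30, 1 each in TMZ600, EA20TMZ380 and EA45, 2 in EA20TMZ580 and 3 in EA35TMZ320. The shares of all tested transcripts called lower were 8.58% in EA30, 5.5% in TMZ600, 13.4% in EA20TMZ380, 19.3% in EA45, 11.8% in EA20TMZ580 and 23.6% in EA35TMZ320. With scaling to total counts alone, TCF7L1 was also called in EA30 (-0.44, edgeR adjusted p = 0.0101) and EA20TMZ380 (-0.49, edgeR adjusted p = 0.0033), and FZD7 in EA45 (-0.81, edgeR adjusted p = 0.0177).

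SOX4 is a single-exon gene, and 40 other transcription regulators were followed for comparison. They were listed as single-exon genes, but their exon numbers were not checked and some may have introns. Of these, 32 were at 0 and FOXC1 alone could be tested. FOXC1, a forkhead transcription factor, had control counts of 169, 170 and 146 and treated counts of 105 to 247. Its log2 fold change lay between -0.46 and 0.02 and passed in no treatment, although with scaling to total counts alone it was called lower in EA20TMZ380 (-0.61, edgeR adjusted p = 0.0277) and EA20TMZ580 (-0.66, edgeR adjusted p = 0.0244). That scaling moved all log2 fold changes by between -0.29 and 0.06.

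Of 10 genes in the wider region around SOX4, a chosen list and not the nearest 10, 6 were at 0. Of those counted, E2F3 lay 1100 kb, ID4 1752 kb and NRSN1 2528 kb from SOX4. CASC15, a long non-coding RNA gene 67.8 kb away, had control counts of 4, 0 and 0 and treated counts of 2 to 6. ID4, an inhibitor of helix-loop-helix factors, had control counts of 3, 4 and 8 and treated counts of 2 to 16. E2F3, a cell-cycle transcription factor, had 3 counts in all, 2 of them in EA30, and NRSN1 had 1 count in each of 2 libraries. These counts were too low for a test.

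The transcripts whose pattern was most like that of SOX4 were sought among 310 others with a mean of at least 50 counts, by Pearson's r of log2 CPM over the 9 libraries. These points share libraries, controls and scaling, and the controls stand apart from the treated libraries, so r is also given over the 6 treated libraries. The highest r was that of MIR210HG, the host transcript of a hypoxia-induced microRNA, with 0.98 over 9 libraries and 0.94 over 6. MIR210HG had 160, 182 and 203 counts in the controls, 24 in TMZ600, 35 in EA30, 12 in EA20TMZ380, 7 in EA20TMZ580, 11 in EA45 and 1 in EA35TMZ320. IFITM1, an interferon-induced membrane protein gene, had an r of 0.96 over 9 and 0.88 over 6 libraries. It went from 973 ± 58.2 CPM (SD, n = 3) in the controls to 182 CPM in EA35TMZ320.

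ZC3H10, a zinc finger gene, had an r of 0.96, ANKH, which encodes a membrane protein that controls extracellular pyrophosphate, had 0.95, and the unnamed transcript XR_924269.2 had 0.95. Over the 6 treated libraries their r was 0.84, 0.83 and 0.85. NES had an r of 0.90 over 9 libraries and 0.53 over the 6 treated. MIR210HG, ZC3H10, ANKH and NES reached the mean of 50 counts only through the controls, so their r over the treated libraries rests on few counts. In all, 15 transcripts had an r above 0.9, and the median over the 310 was -0.07.

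The opposite pattern was clearest in NFX1 (r = -0.98), a transcription regulator, LURAP1L (r = -0.97) and TNFSF9 (r = -0.95), a ligand of the tumour necrosis factor family. Over the 6 treated libraries their r was -0.93, -0.87 and -0.94. LURAP1L had 210 ± 28.4 CPM (SD, n = 3) in the controls, 551 CPM in TMZ600 and 2300 CPM in EA35TMZ320. TNFSF9 had 144 ± 45.3 CPM (SD, n = 3) in the controls, 230 CPM in TMZ600 and 1157 CPM in EA35TMZ320. With 27, 50 and 48 counts in the controls, TNFSF9 reached the mean of 50 counts only through the treated libraries where it was high. NFX1 had 570 ± 45.0 CPM (SD, n = 3) in the controls, 896 CPM in TMZ600 and 1487 CPM in EA35TMZ320. In all 3, the lowest treated level was in TMZ600 and the highest was in EA35TMZ320, the reverse of SOX4.

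**Figure D4:**
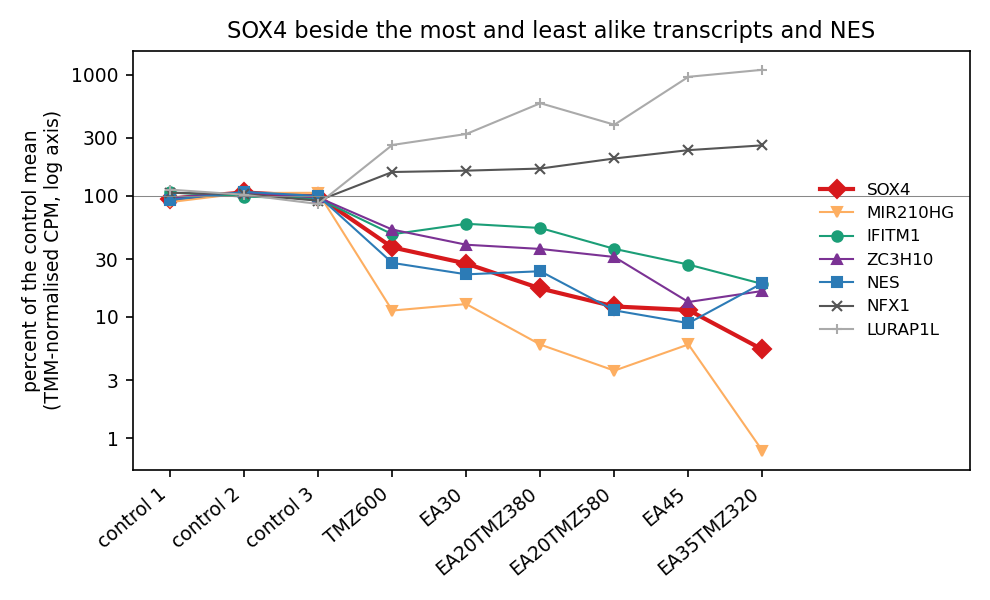
Level as percent of the control mean (TMM-normalised CPM, log axis) in each library for SOX4, the 3 transcripts most like it, NES, and NFX1 and LURAP1L, which ran opposite, with libraries ordered by their SOX4 level and lines joining them for reading only. SOX4 steps down from 37.5% in TMZ600 to 5.39% in EA35TMZ320, whereas NES is lowest in EA45.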

How the data were processed

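The authors made QuantSeq 3′ libraries from U-87 RNA. The authors deposited raw counts per RefSeq transcript, without normalization. The submitters' processing notes name HISAT2, HTSeq and hg38, and their versions and settings are not given in the sources used here. Depth per library is given with the results. Of genes with 1 transcript row, like SOX4, 14.4% had a count, and of genes with more rows 10.2%; how reads shared by transcripts were counted is not given in the sources used here. Symbols were matched to RefSeq GRCh38.p14 by version for 57752 transcripts and without version for 56298, and 45017, with 4.67% of the counts, had none.

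Transcripts whose mean reached 10 counts were fitted with edgeR 4.0.16 in R 4.3.3 (TMM, quasi-likelihood F-test, Benjamini-Hochberg adjustment over all 618, threshold 0.05). The fit for single treatments had 1 coefficient per condition and 2 residual degrees of freedom. Others took the 6 treatments as 1 group or the concentrations as numbers. DESeq2 1.42.0, other scalings and filters, and leaving out libraries were alternatives. Fits were also run on simulated counts with the same spread for every transcript, which says nothing about unmeasured variation between treated cultures. Intervals and limits cover counting error only. Sequences came from RefSeq and GENCODE for GRCh38, read with Python 3.11.15. SOX4 and the gene lists were chosen with earlier results of these data known. Named were SOX4, list genes with a mean of at least 10 counts, counted SOX genes and listed genes of the region, and the 5 transcripts most and the 3 least alike. Single markers outside this rule were named after their values were seen.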

Additional observations from a re-analysis of the deposited data

How the results depend on the processing

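SOX4 stayed lower than the controls in each treatment under every alternative run, and its order over the treatments did not change. The alternatives reuse the same counts, so this is no test against variation between cultures. With scaling to total counts alone, which moved all log2 fold changes by -0.29 to 0.06, SOX4 had -2.12 in EA30, -2.83 in EA20TMZ380, -3.23 in EA20TMZ580, -3.37 in EA45, -4.39 in EA35TMZ320 and an EA slope of -0.82. It had -4.32 in EA35TMZ320 without the filter on counts, and -2.42 in EA20TMZ380 both with TMM without mitochondrial transcripts and with the library and the 3 controls fitted alone. Interpolating the remaining fraction gave departures of -1.46 (EA35TMZ320), -0.86 (EA20TMZ380) and -0.75 (EA20TMZ580). The product coefficient ranged from -0.19 without TMZ600 to -0.031 when 1 library was left out. DESeq2's Wald test called 23 instead of 61 transcripts in TMZ600, 42 instead of 107 in EA30, 58 instead of 153 in EA20TMZ380, 58 instead of 143 in EA20TMZ580, 114 instead of 240 in EA45, 150 instead of 271 in EA35TMZ320, and 92 instead of 42 over the 6 treatments. Without the filter 93 were called in EA20TMZ580. Leaving out 1 library gave 12 to 64 over the 6 treatments (12, 13 and 15 without a control, 64 without TMZ600). The cause of these differences was not tested.

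Among genes not called, signs turned as follows. FOXC1 had -0.25 (total counts) and -0.095 (without the third control) in EA30, -0.22, -0.043 (mean of at least 50 counts) and -0.090 (without the third control) in EA45, and 0.033, 0.016 (no filter), 0.0012 and 0.043 (without the first and the second control) in TMZ600. With total counts FZD7 had -0.14, DKK4 -0.15 and WNT5A -0.0096 in EA30, and WNT5A -0.24 in EA20TMZ380, where it had -0.027 at a mean of at least 50 counts. DKK4 had -0.068 in EA30 without the second control, and SKI 0.015 in TMZ600 without the first. Over the 6 treatments WNT5A had 0.024 with TMM without mitochondrial transcripts, 0.044 without the second control, 0.088 without EA35TMZ320 and 0.020 without EA20TMZ580. With 1 library left out, the other end of each range was 0.11 for FOXC1 and 0.30 for DKK4 in EA30, 0.099 for FOXC1 in EA45, -0.14 for FOXC1 and -0.41 for SKI in TMZ600 and -0.11 for WNT5A over the 6 treatments. No paired analysis was possible because each treatment had 1 library and the numbers of the controls pair no libraries. In EA35TMZ320, the 46 counts of SOX4 set the width of its interval, and listed genes of the region with a few counts could not be compared at this depth.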
